A study of Rattus norvegicus with 8 samples.

Results

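The Gadd45 family was followed in rat PC12 cells with and without forskolin. GADD45 proteins are small acidic stress sensors named for growth arrest and DNA damage. They have no known enzyme activity and act by binding others: they activate the kinase MAP3K4 (MTK1) upstream of p38 and JNK, hold back the CDK1 and cyclin B1 complex at the entry to mitosis, bind PCNA and p21, and have been linked to DNA repair and active DNA demethylation. In mammals Gadd45a is a classic DNA damage response gene, Gadd45b is known as a gene induced by NF-kappaB, TGF-beta and neuronal activity, and Gadd45g as a gene induced by cytokines and in neuronal differentiation.

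The members were all probe sets on the 2 chips annotated with the single symbol Gadd45a, Gadd45b or Gadd45g. There were 3, all on chip A, among 31142 probe sets on both chips, and they stand for 3 of 13810 named genes. Each gene had 1 probe set, none was shared with another gene and none was on chip B, so no second probe set checks any of the 3 values. The family was chosen by its measured values, selected on the differences between forskolin and no forskolin, which ran in opposite directions. The forskolin differences of its members are therefore given as a description, with no test. Forskolin cells held 1.83-fold the control signal of Gadd45b, and 63.8% and 68.8% of that of Gadd45a and Gadd45g.

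PC12 is a cell line from a rat adrenal medulla tumour (pheochromocytoma), and forskolin activates adenylyl cyclase, which makes cyclic AMP. Total RNA was measured on 8 arrays: on each chip 2 arrays with forskolin and 2 without, described in the series title as an inactive control. The sources used here give no dose, no time and no description of that control. Nor do they say whether replicates were separate cultures, so p-values measure only the spread between these arrays, which may be technical. The values are the authors' processed expression values, taken as log2 from their range, and levels of different probe sets were not set against each other. Array medians on chip A lay between 8.15 and 8.17, and 11106 of its probe sets passed a filter on brightness, whose lowest mean level was 7.02 (log2). Of 11 chromaffin cell markers with a probe set, 9 passed the filter of their chip, and Dbh and Slc18a1 did not. Tyrosine hydroxylase (Th), which starts the synthesis of catecholamines, was among the 9. With forskolin limma called 1 of the 9 higher, Phox2a (0.41, log2, adjusted p = 1.02e-04), and 0 lower. Before adjustment limma's p was below 0.05 for 5 that rose, Phox2a included, and for 1 that fell. Their median difference was 0.11, against -0.02 over all genes (log2). Of 17 markers of fibroblasts, glia, adrenal cortex, blood and endothelium with a probe set, 8 passed and limma called 0 of them different with forskolin, with 1 higher at an unadjusted p under 0.05. In RNA from whole cultures, fewer cells that express a gene and less RNA per cell cannot be told apart.

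The windows of 250 bases before the annotated start of each gene are shown because the 3 genes differed in direction and such windows often hold the elements through which cyclic AMP and stress act on genes. They come from RefSeq (GRCr8), all on the minus strand: chr4:97486800-97487049 for Gadd45a, chr7:9430719-9430968 for Gadd45b and chr17:13530352-13530601 for Gadd45g, each read 5′ to 3′ along the gene. Capitals mark matches, on either strand, to 11 motifs. The Gadd45b window lies inside the annotated span of the gene, which extends further upstream than the start used here.
Gadd45a: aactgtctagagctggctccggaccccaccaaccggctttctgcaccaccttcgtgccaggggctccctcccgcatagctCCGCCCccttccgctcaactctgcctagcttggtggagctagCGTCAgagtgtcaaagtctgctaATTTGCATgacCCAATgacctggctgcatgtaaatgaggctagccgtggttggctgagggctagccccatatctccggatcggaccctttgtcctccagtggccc
Gadd45b: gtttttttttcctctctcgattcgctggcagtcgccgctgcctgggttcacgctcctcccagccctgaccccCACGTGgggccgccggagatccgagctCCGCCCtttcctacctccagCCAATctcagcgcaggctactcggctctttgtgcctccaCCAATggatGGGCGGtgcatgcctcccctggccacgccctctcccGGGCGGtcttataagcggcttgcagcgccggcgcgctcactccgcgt
Gadd45g: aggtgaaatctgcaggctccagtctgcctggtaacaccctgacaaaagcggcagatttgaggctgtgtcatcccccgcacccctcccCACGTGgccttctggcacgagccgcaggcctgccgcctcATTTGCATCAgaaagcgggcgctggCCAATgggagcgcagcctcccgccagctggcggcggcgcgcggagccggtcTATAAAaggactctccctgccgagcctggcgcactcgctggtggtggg

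The full cyclic AMP response element, TGACGTCA, was in 0 of the 3 windows and in 1.59% of the 33469 windows of the same length in the RefSeq table. Its short core TGACG was in 1 of 3, in Gadd45a on the other strand, 128 bases before the start, and in 18.2% of all windows. The octamer ATTTGCAT, the motif of OCT factors, was in the windows of Gadd45a (105 bases before the start) and Gadd45g (124 bases). It was in 1.56% of all windows. Both genes were lower with forskolin, but with 3 genes chosen by direction and 11 motifs searched, a link was not tested. In human cells an octamer and a CCAAT box of the GADD45A promoter are known to bind OCT-1 and NF-Y. In Gadd45g the octamer overlaps TTGCATCA, the letters of the element bound by C/EBP and ATF factors, found in 0.693% of all windows. All 3 windows held CCAAT, as did 34.0% of all windows, at 94 bases in Gadd45a, at 131 and 92 bases in Gadd45b, and at 99 bases in Gadd45g.

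The windows also differed in exact matches to core elements. Gadd45b held 3 matches to the GC box GGGCGG, at 151 bases (other strand), 83 and 47 bases before the start, Gadd45a held 1 at 170 bases (other strand), and Gadd45g none. This motif was in 30.5% of all windows. The TATA box TATAAA was in Gadd45g only, 48 bases before the start, and in 12.9% of all windows. Gadd45b held the near match TATAAG, which was not counted. The E-box CACGTG was in Gadd45b (178 bases) and Gadd45g (163 bases), and in 5.59% of all windows. The AP-1 site TGANTCA, the FOXO site GTAAACA and the EGR site GCGTGGGCG were in none of the 3, and in 6.34%, 3.21% and 0.478% of all windows. A match is a run of letters and not a bound site, and elements outside these windows were not searched.

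Gadd45a, the member known for its response to DNA damage, was measured by probe set 1368947_at (Entrez gene 25112). Its values were 7.57 and 7.43 on the forskolin arrays, against 8.14 and 8.15 on the arrays without forskolin (log2). Both forskolin arrays were low, and the groups were 0.57 apart at their nearest values. The group means were 7.50 ± 0.10 with forskolin and 8.15 ± 0.01 without (log2, SD, n = 2 each). The difference, forskolin minus no forskolin, was -0.65 ± 0.06 (log2, limma's moderated SE), so that forskolin cells held 63.8% of the control signal. It had the 6th most negative difference among the 11106 tested probe sets. The forskolin arrays lay above the lowest mean level the filter kept (7.02, log2), but how far that lies above background is not known.

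Gadd45g, the cytokine-responsive member, was measured by probe set 1388792_at (Entrez gene 291005). Its values were 8.29 and 8.51 on the forskolin arrays, against 8.87 and 9.02 on the arrays without forskolin (log2). The groups did not overlap, with a gap of 0.36 between the nearest arrays. The means were 8.40 ± 0.16 with forskolin and 8.94 ± 0.10 without (log2, SD, n = 2 each), a difference of -0.54 ± 0.08 (log2, SE), or 68.8% of the control signal. This was the 9th most negative difference on the chip. Over the 4 pairings of a forskolin array with a control array it ranged from -0.72 to -0.36, against -0.72 to -0.57 for Gadd45a.

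Gadd45b, the member known as an early response gene, was measured by probe set 1372016_at (Entrez gene 299626). Its values were 8.07 and 7.86 on the forskolin arrays, against 7.05 and 7.14 on the arrays without forskolin (log2). Both forskolin arrays were high, and the nearest arrays were 0.72 apart. The means were 7.97 ± 0.15 with forskolin and 7.09 ± 0.07 without (log2, SD, n = 2 each), a difference of 0.87 ± 0.07 (log2, SE), or 1.83-fold. The 4 pairings gave 0.72 to 1.03. It ranked 51st among the rises of the tested probe sets. Its control arrays lay just above the lowest mean level the filter kept, and how far that lies above background is not known, so the size of this difference is uncertain.

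**Figure D1:**
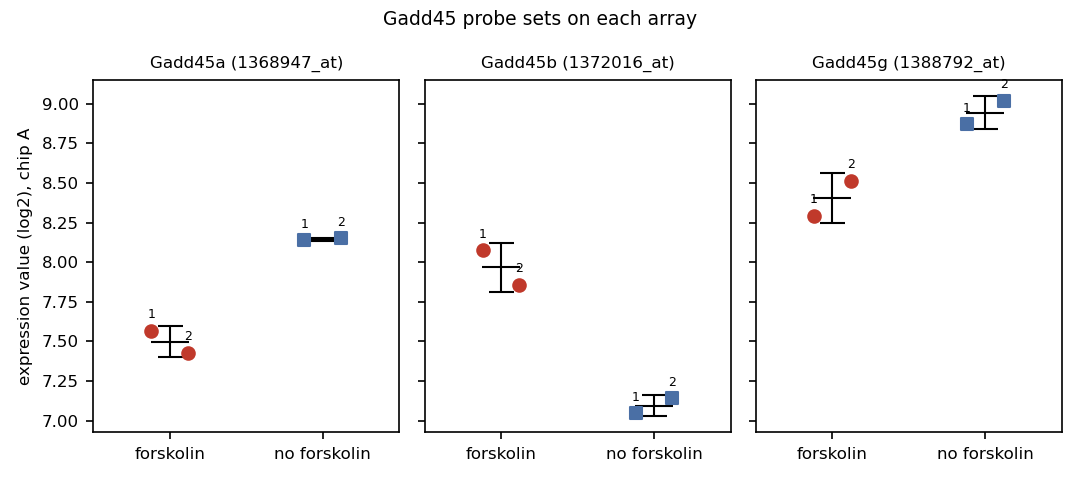
Expression values (log2, vertical axis) of the Gadd45a, Gadd45b and Gadd45g probe sets on the 4 arrays of chip A, with forskolin on the left and no forskolin on the right of each panel. Points are arrays, numbered by replicate, and bars are the mean ± SD (n = 2). The forskolin arrays lie below the control arrays for Gadd45a and Gadd45g and above them for Gadd45b, and levels are not comparable between panels.

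The groups overlapped for 0 of the 3 members. On chip A both forskolin arrays lay above both controls in 20.4% of tested probe sets and below both in 28.0%. The members were selected on this contrast, so nothing is read from these shares. All 3 members passed the brightness filter, on all 4 arrays. Within a group the arrays of a member differed by 0.14 to 0.22 with forskolin and by 0.01 to 0.15 without (log2). In size the forskolin differences ranked 54th (Gadd45b), 73rd (Gadd45a) and 92nd (Gadd45g) among the tested probe sets.

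**Figure D2:**
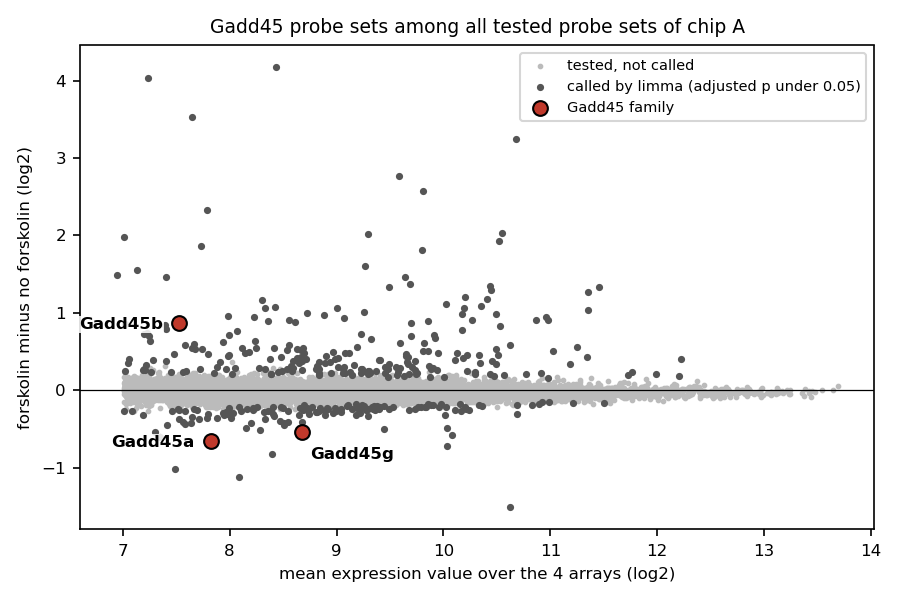
Difference between forskolin and no forskolin (log2, vertical axis) against the mean expression value over the 4 arrays (log2, horizontal axis) for the 11106 tested probe sets of chip A. Dark points were called by limma, and the 3 labelled points are the Gadd45 family: Gadd45b lies at 0.87, Gadd45a at -0.65 and Gadd45g at -0.54.

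The profiles most like each member were found by the root mean square distance between log2 values over the 4 arrays of chip A, each probe set centred on its mean, among 9360 probe sets of other named genes. They follow the same difference by construction and are a description. Closest to Gadd45a was Pik3ip1, an inhibitor of PI 3-kinase, with 9.74 and 9.61 on the forskolin arrays and 10.40 and 10.38 without (distance 0.035). LOC100912167, Filip1l and Rsrp1 followed, at 0.069 to 0.10. Closest to Gadd45g were Sgk1, a kinase gene induced by serum and glucocorticoids (distance 0.066, difference -0.48), Rsrp1, Tsr2, which serves ribosome assembly (-0.43), and Filip1l. A brighter Tsr2 probe set measured -0.17 (log2). Rsrp1 and Filip1l were thus among the 4 closest to both members that were lower.

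Closest to Gadd45b was Cebpb, a bZIP transcription factor of acute responses. Its values were 11.37 and 11.28 on the forskolin arrays and 10.39 and 10.44 without (distance 0.052, difference 0.91). Next came Cited2, a CBP and p300 binding protein that restrains hypoxia signalling, with a difference of 0.89. The bradykinin B2 receptor gene Bdkrb2 on 1 of its probe sets (0.96) and the ubiquitin ligase gene Rnf122 (0.84) completed the 4. Rnf122 measured 6.88 and 7.08 without forskolin. Their mean, 6.98, lay under the lowest mean level the filter kept (7.02, log2), so the size of its difference is uncertain.

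**Figure D3:**
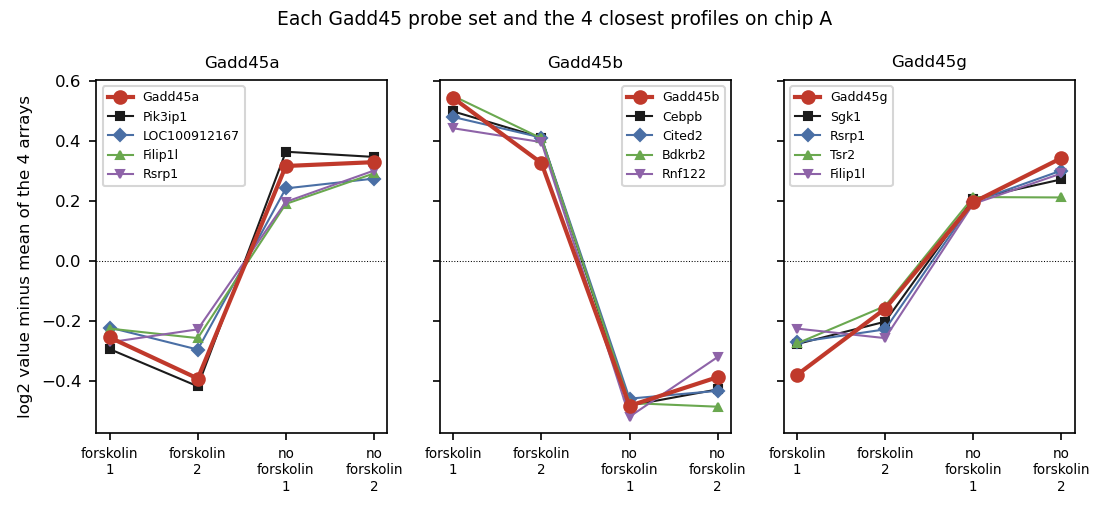
Log2 value minus the mean of the 4 arrays (vertical axis) on each array of chip A (horizontal axis) for each Gadd45 probe set, drawn bold, and the 4 probe sets with the closest profile. In each panel the 4 thin lines stay close to the member, with distances of 0.035 to 0.10 (log2).

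Genes around the family were then read through 10 lists of 114 genes, each gene through its brightest tested probe set. Of these, 85 were tested: 15 rose (17.6%) and 6 fell (7.06%) by limma (adjusted p under 0.05). Over all 11007 genes tested this way, 1.45% rose and 0.945% fell. On chip A limma called 2.03% of tested probe sets higher and 1.26% lower. On chip B, which measured the listed genes not tested on chip A, these shares were 0.150% and 0.00935%. The lists were drawn up with earlier results of these data known, and several hold genes already known to respond, so their counts are not independent evidence. The median difference was -0.01 over the listed genes and -0.02 over all genes (log2).

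Of 9 tested genes of the stress kinase cascade that GADD45 proteins act on, 1 rose and 0 fell, with a median of 0.06 (log2). The gene that rose was Mapkapk2, a kinase downstream of p38, which rose 1.16-fold (limma adjusted p = 0.0359), with 10.84 and 10.93 on the forskolin arrays and 10.63 and 10.71 without. That call was lost in 4 of 10 alternatives, among them leaving out forskolin replicate 2 or no forskolin replicate 1 (adjusted p up to 0.138). Map3k4, the kinase that GADD45 proteins bind and activate, measured -0.19 ± 0.09 on chip B (log2, SE, limma adjusted p = 0.977), and Map2k3, a kinase of p38, 0.13 (0.140).

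Of 6 tested cell cycle partners, 0 rose and 1 fell, with a median of -0.07. Before adjustment limma's p was below 0.05 for 3 that were lower, the called gene included, and for 1 that was higher. Ccnb1, the cyclin partner of Cdk1, fell 1.11-fold (limma adjusted p = 0.0441), but its other probe set measured -0.03 (0.756), and leaving out any 1 of the 4 arrays ended the call (adjusted p up to 0.187). Cdk1 measured -0.09 (0.204), the mitotic kinase gene Aurka -0.16 (0.125) and the replication clamp gene Pcna -0.02 (0.831), none of them called by limma. Cdkn1a, which encodes the cell cycle inhibitor p21, was not called on its brighter probe set (0.13, adjusted p = 0.106), while the other probe set rose by 0.30 (0.0173) and was at 0.0823 when forskolin replicate 1 was left out.

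Of 9 tested genes of DNA demethylation and repair, limma called 0, and 0 had an unadjusted p under 0.05. Ing1, a chromatin reader that recruits Gadd45a, measured -0.08 and the DNA methyltransferase gene Dnmt1 -0.07 (log2). The 5 tested proteins that share the L7Ae fold of GADD45 proteins, such as the ribosomal protein gene Rpl7a (-0.01), also gave 0 calls and 0 unadjusted p under 0.05. Of these, Secisbp2l measured 0.09 and Nhp2 -0.04.

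Of 15 tested transcription factors known to act on Gadd45 genes, 3 rose and 0 fell, with a median of 0.03. Of 18 listed, Atf3, Wt1 and Pou2f1, the gene of OCT-1, did not pass the filter and were not tested. Egr1, a zinc finger factor of early responses, rose 2.23-fold, with 8.87 and 8.90 on the forskolin arrays and 7.76 and 7.69 without (limma adjusted p = 1.67e-06). Myc, a known repressor of Gadd45a, rose 1.39-fold (limma adjusted p = 0.00781), with 8.31 and 8.46 against 7.81 and 7.99 without forskolin. Atf4, the effector of the integrated stress response, rose 1.17-fold (limma adjusted p = 0.0164, but 0.0688 when forskolin replicate 2 was left out). Ddit3, a C/EBP family partner, measured 0.17 and Nfya, a subunit of the CCAAT-binding factor NF-Y, -0.17, neither called. Foxo3, a FOXO factor that acts on Gadd45a, measured 0.06, and Creb1, the cyclic AMP response factor, -0.01, on the 1 tested probe set each had.

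Of 14 tested FOXO targets, 1 rose and 4 fell, with a median of -0.04. Txnip, an inhibitor of thioredoxin and glucose uptake, fell 2.84-fold (limma adjusted p = 1.07e-07) and Pik3ip1 1.64-fold (4.66e-05), both known to be lower when the list was made. Sesn1, a stress-induced inhibitor of mTORC1, fell 1.32-fold (limma adjusted p = 0.00393), with 8.21 and 8.33 on the forskolin arrays, against 8.69 and 8.65 without. Ccng2, an atypical cyclin of arrested cells, fell 1.19-fold (limma adjusted p = 0.0201), but was not called when either forskolin array or no forskolin replicate 2 was left out (up to 0.0738). Irs2, an adaptor of the insulin receptor, moved the other way and rose 1.53-fold (limma adjusted p = 1.34e-04).

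NF-kappaB and TGF-beta are known inducers of Gadd45b. Of 9 tested NF-kappaB targets, 2 rose and 0 fell: the AP-1 subunit gene Junb rose 3.05-fold (limma adjusted p = 1.07e-07) and the stress-response gene Ier3 2.76-fold (5.86e-07). Both are also early response genes outside this pathway. The list's median was 0.02, and Nfkbia, the inhibitor that NF-kappaB induces in a feedback loop, measured -0.10 (log2, limma adjusted p = 0.273). The factors Nfkb1 and Rela measured -0.02 each.

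Of 8 listed TGF-beta targets 4 were tested, and limma called each of these, 3 higher and 1 lower, with a median of 0.62 (log2). Id1, which keeps helix-loop-helix factors from binding DNA, rose 2.06-fold (limma adjusted p = 4.56e-07), with 11.86 and 11.89 on the forskolin arrays and 10.81 and 10.86 without. Bambi, a decoy receptor that dampens TGF-beta signalling, rose 1.92-fold (limma adjusted p = 3.33e-06), and Skil, a corepressor of SMADs, 1.23-fold (0.00542). Ccn2, a matricellular protein gene, fell 1.21-fold (limma adjusted p = 0.0187), again not called when either forskolin array or no forskolin replicate 2 was left out (up to 0.0801). SMAD genes themselves, Smad2, Smad3 and Smad4, measured -0.01, 0.03 and -0.04 without a call.

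A further list held genes that share the GADD or DDIT name and Gas (growth arrest) genes, none of them Gadd45 paralogs. Of 8 tested, Gas1, Gas2 and Gas5 among them, 3 rose and 0 fell, with a median of 0.14. Ddit4, an inhibitor of mTORC1, rose 2.30-fold (limma adjusted p = 3.77e-07), with 10.83 and 10.78 on the forskolin arrays and 9.59 and 9.62 without. Ppp1r15a, also known as Gadd34, which restores translation after stress, rose 1.66-fold (limma adjusted p = 3.13e-05), and Gas1, a growth arrest protein of the cell surface, 1.35-fold (6.15e-04). Ddit3, also known as Gadd153, measured 0.17 ± 0.05 (log2, SE, limma adjusted p = 0.120). Gadd45gip1, whose protein binds GADD45 proteins and serves the mitochondrial ribosome, measured -0.15 ± 0.04 (log2, SE, limma adjusted p = 0.126).

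Of 8 tested RNA-binding proteins that act on AU-rich mRNAs, 2 rose and 0 fell, with a median of 0.03. Zfp36 (tristetraprolin), which speeds the decay of early response mRNAs, rose 1.46-fold (limma adjusted p = 9.71e-04), with 8.95 and 8.97 on the forskolin arrays and 8.33 and 8.50 without. Its relative Zfp36l2 rose 1.14-fold (limma adjusted p = 0.0238), but in 5 of 10 alternatives it was not called (up to 0.0874), among them those that left out either forskolin array or no forskolin replicate 1. Hnrnpd (AUF1) and Tial1 (TIAR), known in human cells to bind GADD45A mRNA, measured 0.01 and 0.02. Zfp36l1 measured 0.14 (0.233) and Khsrp -0.07 (0.622), not called by limma.

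**Figure D4:**
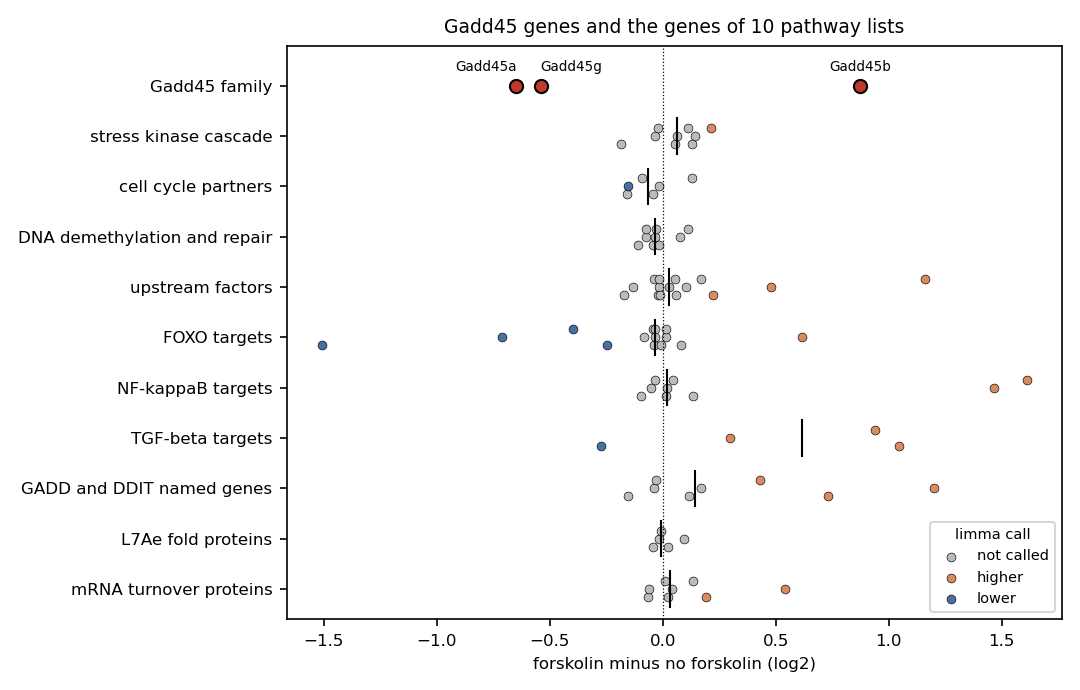
Difference between forskolin and no forskolin (log2, horizontal axis) for the 3 Gadd45 genes in the top line and for each tested gene of the 10 pathway lists below. Points are genes through their brightest tested probe set, coloured by limma's call, and black bars are list medians. Most listed genes lie near 0, with called genes on both sides: Txnip at -1.51 is the lowest and Junb at 1.61 the highest.

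The genes next to each member were read from the order of genes in the RefSeq table, taking the nearest 3 tested genes on each side. Of 18 such neighbours, limma called 1, which was higher. The 6 tested neighbours of Gadd45b lay between -0.07 and 0.04 (log2), among them Lmnb2, a nuclear lamina gene directly beside it, at -0.06 and the G protein subunit gene Gng7 at 0.02. The 6 tested neighbours of Gadd45a lay between -0.24 and 0.00, with Gng12, directly beside it, at 0.00. On its other side 229 genes with no tested probe set lie before the next tested one, Rpia.

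Near Gadd45g, 5 of 6 tested neighbours lay between -0.13 and 0.02. The other was Nfil3, a bZIP repressor, which rose 1.51-fold with 20 genes of the table between them. Its difference was 0.59 ± 0.06 (log2, SE, limma adjusted p = 6.17e-04). Secisbp2, the nearest tested gene on the other side, which also encodes a protein with the L7Ae fold, measured -0.02.

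**Figure D5:**
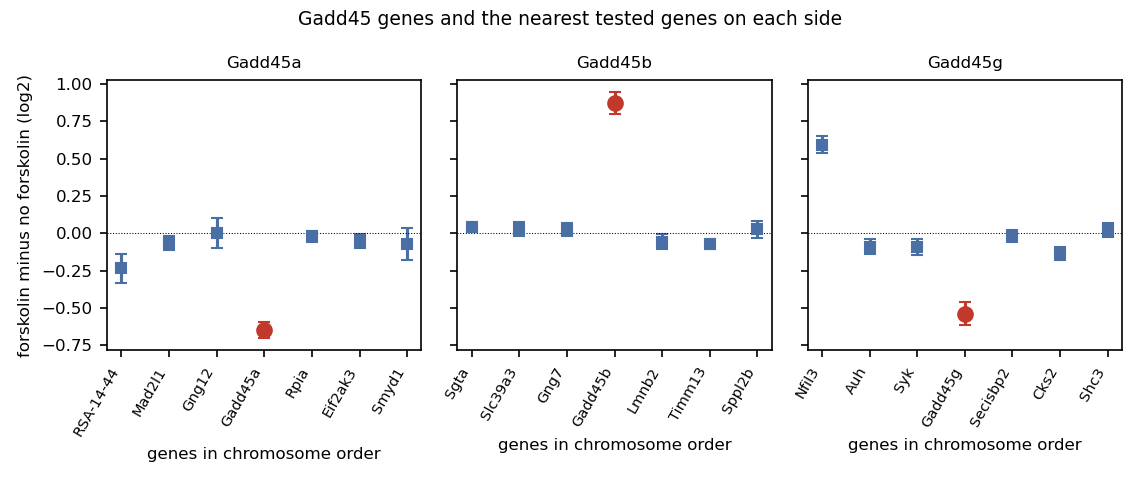
Difference between forskolin and no forskolin (log2, vertical axis) for each Gadd45 gene (circle) and its nearest 3 tested genes on each side (squares) in chromosome order, not to scale of distance. Bars are limma's moderated SE (n = 2 arrays per group). Among the 18 neighbours Nfil3, at 0.59, is the one called by limma.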

How the data were processed

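Total RNA of PC12 cells was measured on 8 arrays of 2 chips. The deposited tables hold 1 log2 value per probe set and array, processed by the authors. How background, probe summary and scaling were handled is not given in the sources at hand. The base of the logarithm was read from the values: as powers of 2, 100% fit a 16-bit scanner, and as natural logarithms 3063 on chip A would not. Chips were analysed separately. The deposited scaling was kept because array medians differed by at most 0.025 (log2). A filter dropped the dimmest 30% of each chip's probe sets by mean linear value. Symbols came from GEO's platform annotation, updated by Entrez number to RefSeq (GRCr8), matched by 12748 of the 12783 probe sets that carry 1 symbol on chip A. For chip B these were 7524 and 7564.

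Forskolin was compared with no forskolin by limma 3.58.1 in R 4.3.3 (lmFit, eBayes with an intensity trend, two-sided, Benjamini-Hochberg adjustment over all tested probe sets of a chip, threshold 0.05), after a test on simulated data. The number of arrays, 2 per group, limits the precision: the median SE was 0.045 (log2) on chip A and 0.089 on chip B. Members and gene lists were chosen with earlier results of these data known. Genes named are the members, up to 6 called and 2 uncalled genes of each list with the smallest p, the 4 closest profiles per member, called neighbours and a fixed panel of partners, and other genes were named after their values were seen. A gene on both chips counted through chip A. One gene list and one gene are not reported here. Alternatives were median centring, quantile normalization, no filter or the 50th percentile, eBayes without a trend, the replicate number as a block, each array left out, any tested probe set of a gene, and ratios of linear means.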

Additional observations from a re-analysis of the deposited data

How the results depend on the processing

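For the 3 Gadd45 differences, 7 alternatives gave -0.72 to -0.58 for Gadd45a, 0.76 to 0.98 for Gadd45b and -0.65 to -0.43 for Gadd45g (log2). The lowest and highest of these came from leaving out 1 array. All kept the direction, but the groups of a member did not overlap, so leaving out 1 array could not change it. Nothing is therefore read from the direction. Counts of calls moved more. On chip A the 140 lower probe sets became 277 with median centring and 83 to 192 without 1 array (83 without forskolin replicate 1, 85 without forskolin replicate 2). On chip B the 16 higher and 1 lower became 27 and 3 under quantile normalization, and 10 to 41 higher and 0 to 57 lower without 1 array. Of the listed genes, 6 fell as reported and 3 to 5 without 1 array. The called neighbours numbered 0 with the filter at the 50th percentile, which left Nfil3 untested, and 1 to 2 without 1 array.

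With the replicate number as a block, 46 probe sets on chip A were lower and 159 higher against 226, 2 on chip B were lower, and 3 listed genes fell. The limma calls of Ccn2 (adjusted p = 0.0874), Ccnb1 (0.113), Ccng2 (0.0686), Zfp36l2 (0.0874) and the other Cdkn1a probe set (0.0930) were lost under the block. Deviations of same-numbered arrays correlated across tested probe sets at 0.0034 on chip A and 0.20 on chip B. With 2 numbers per chip this does not show that the numbers pair the samples.

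Some small differences without a call changed sign. Pcna measured 0.0075 under quantile normalization. Leaving out 1 array in turn gave -0.038 to 0.0044 for Pcna, -0.067 to 0.0035 for Ccnb1 on its other probe set, -0.046 to 0.023 for Creb1 and -0.14 to 0.011 for Khsrp. The highest of each came without forskolin replicate 1 (Ccnb1, Creb1) or without no forskolin replicate 2 (Khsrp, Pcna). The cause of these changes was not tested.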
